A study of Arabidopsis thaliana with 8 samples.

Results

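The genes described here are 45 heat shock proteins and chaperones of *Arabidopsis thaliana*, listed by locus identifier. They comprise 4 members of the HSP100/Clp family, 7 of HSP90, 12 of HSP70, 7 small heat shock proteins (sHSPs), 6 chaperonin subunits, 5 cochaperones, 3 lectin chaperones of the endoplasmic reticulum (ER) and the heat shock factor HSFA2. Their products are placed in the cytosol for 20 genes, in the chloroplast for 9, in the mitochondrion for 8, in the ER for 7 and in the nucleus for 1. Ribosome footprints lay on the coding sequence (CDS) of 42 of the 45, out of 22384 nuclear transcripts examined. No line of the position files named HSFA2 or HSP21, and CPN20 had no footprint on its CDS.

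Molecular chaperones bind proteins that are not yet folded or have lost their fold. HSP70s hold short hydrophobic stretches of chains as they leave the ribosome or cross a membrane, HSP90s act later on nearly folded clients, chaperonins enclose a single chain in a ring, and HSP100s pull chains through a central pore. Each plant compartment has its own set, and in the cytosol constitutive genes (HSC70-1, HSP90.2) stand beside genes known as heat-inducible (HSP101, HSP90.1, HSP70-4, HSP70-5, HOP3 and most sHSPs), many of which are targets of HSFA2. HOT3 encodes eIF5B1, the GTPase that joins the large ribosomal subunit to the small one at the start codon, and was first named in a screen for mutants that fail to acquire thermotolerance.

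Ribosome profiling was performed on inflorescences of 4 genotypes, with 2 libraries each: *hot3-2*, the triple mutant *hot3-2 dcl2 dcl4*, *dcl2 dcl4* and the wild type Col-0 (WT). *hot3-2* is a T-DNA insertion allele of HOT3, and *dcl2 dcl4* lacks 2 of the Dicer-like enzymes, which make small interfering RNAs out of double-stranded RNA. All plants were grown at 23 °C in 16 h of light and 8 h of dark, and the labels name no heat treatment. Below, the 4 libraries with the *hot3-2* allele (*hot3-2* and *hot3-2 dcl2 dcl4*) are the carriers, and the 4 without it (*dcl2 dcl4* and WT) the non-carriers. The labels number the replicates without saying whether they came from separate plants, so the p-values measure the spread between these libraries.

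The carriers were shallower, with 1197157 to 1980798 P sites on nuclear CDSs against 2067581 to 2839839 in non-carriers. HOT3 itself had 39 to 74 CDS P sites in carriers against 284 to 370 in non-carriers, the order its labels give. Of 6 floral organ genes 4 had P sites, at 469 to 526 per 1000000 CDS P sites in carriers against 583 to 652 in non-carriers, while AP1 and AG had none. Pollen genes had 185 to 329.9 per 1000000 in carriers against 188 to 354 in non-carriers, and root hair COBL9 had 5.89 to 8.08 in carriers against 12.01 to 16.6 in non-carriers, without overlap, while EXPA7, the other root hair gene, had none. The part of these cell types in any result below was not tested. Replicates differed more than counting error allows, their chi-square being 2.15 to 3.06 times its degrees of freedom. Inflorescences are whole organs and RNA-seq was not used here, so fewer cells of a type, less mRNA per cell and fewer ribosomes per mRNA cannot be told apart.

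Footprint levels are given as density, the number of P sites per 1000 nt of CDS and per 1000000 nuclear CDS P sites. Density corrects for CDS length but not for codons without P sites, which limits comparison between genes. The 3997 P sites of mtHSC70-1 lay on 171 of its 683 codons, and the 4276 of HSP60 on 337 of 578. Together the members took 1.42% to 1.49% of all nuclear CDS P sites in carriers and 1.69% to 1.78% in non-carriers, without overlap of the 4 and 4 libraries. Most of that share came from few genes. HSC70-1 (AT5G02500), the main constitutive HSP70 of the cytosol, stood far above the rest, with densities of 1926 and 2011 in *hot3-2* and 1922 and 1748 in *hot3-2 dcl2 dcl4*, against 1931 and 1956 (*dcl2 dcl4*) and 1927 and 1769 (WT). HSC70-1 had the highest density of the members in each of the 8 libraries. The next by mean density were CLPC1, CPN60A1, BIP1, HSP90.3, CRT1b, CNX1 and HSP90.2, whose densities lay between 378 and 826 in every library.

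At the other end, the heat-inducible genes carried few footprints. HSP101 (AT1G74310), the HSP100 disaggregase required for thermotolerance, had 2 to 7 CDS P sites per library in carriers and 4 to 17 in non-carriers, and 41.5% of them lay on a single codon. HSP70-5 had 0 to 6 CDS P sites in carriers and 1 to 10 in non-carriers. BIP3, the stress-induced ER HSP70, had a single P site in all 8 libraries. Among the sHSPs, HSP17.4, HSP17.6II, HSP17.6A and HSP23.6 had 0 to 5 CDS P sites in any library. These genes, together with HSP21, HSFA2 and CPN20, fell under the count minimum, which left 35 of the 45 members for the test.

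Whether the loss of eIF5B1 changed how many footprints each chaperone carried was tested with limma voom across 13303 genes, as the mean *hot3-2* effect, the average of the log2 differences *hot3-2* minus WT and *hot3-2 dcl2 dcl4* minus *dcl2 dcl4*. Of the 35 members tested, 17 were lower and 3 higher in carriers at an adjusted p of 0.05, while 8.98% of all genes tested were lower and 8.87% higher. The median log2 difference was -0.23 over the members and 0.01 over all genes. Genes with more P sites can be called at smaller differences, and members were not matched to all genes for depth. Taken singly, 14 members were lower and 2 higher in *hot3-2* against WT, beside 7.10% and 7.34% of all genes. For the triple mutant against *dcl2 dcl4*, 15 were lower and 2 higher, beside 4.62% and 4.30% of all genes. Those 2 were HSP90.5 and mtHSC70-1 in both comparisons. Counts by family leaned most on HSP70, with 8 of 10 tested genes lower and 1 higher, and on the lectin chaperones, with 3 of 3 lower. HSP90 had 3 of 7 lower and 1 higher, the chaperonins 1 of 5 lower, HSP100 1 of 3 lower, and the sHSPs 1 of 2 lower and 1 higher. None of the 5 cochaperones was called. By compartment, 7 of 15 tested genes were lower and 1 higher in the cytosol, 5 of 6 lower in the ER, 4 of 7 lower and 1 higher in the chloroplast, and 1 of 7 lower and 1 higher in the mitochondrion.

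**Figure D1:**
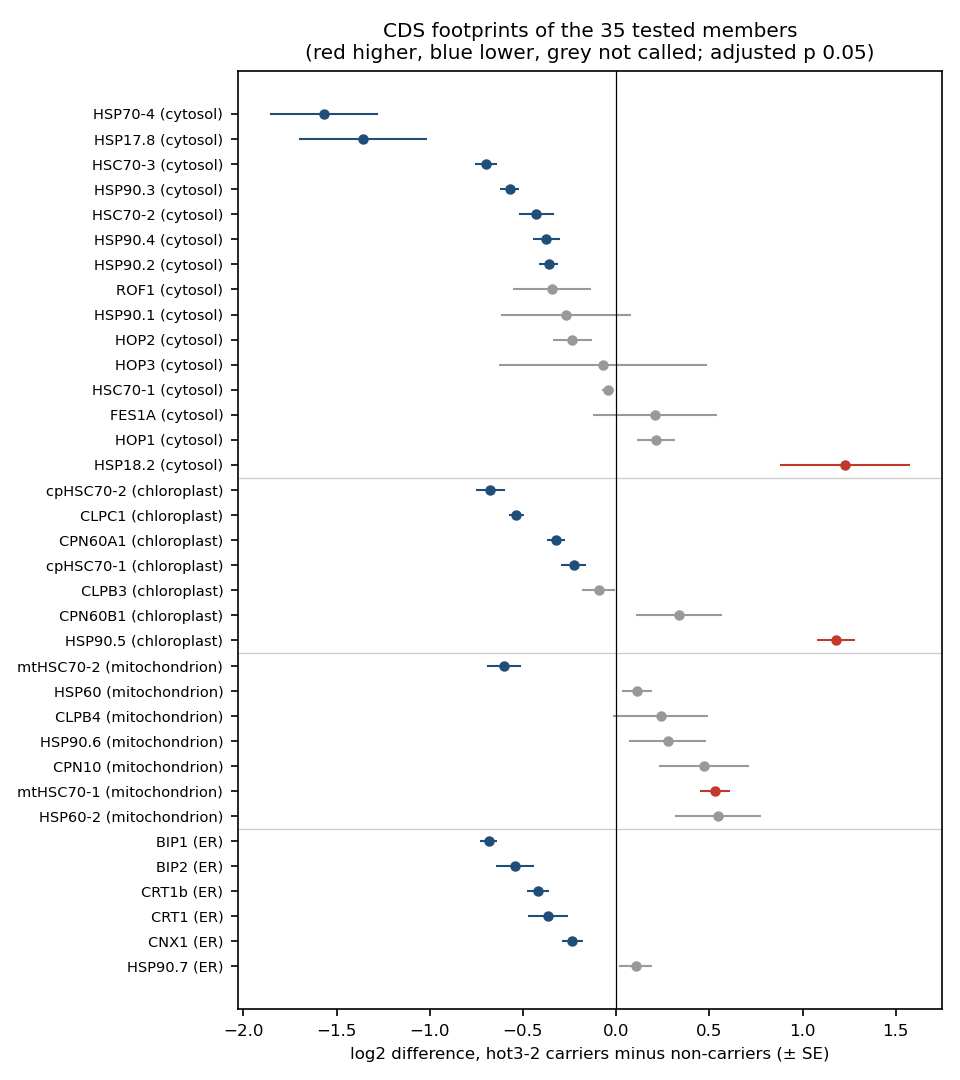
Log2 difference in CDS footprints, *hot3-2* carriers minus non-carriers, for the 35 tested members, with the SE of the limma fit, sorted within cytosol, chloroplast, mitochondrion and ER. HSP70-4 lies farthest to the left at -1.57 and HSP18.2 farthest to the right at 1.23; 17 genes (blue) were lower, 3 (red) higher and 15 (grey) were not called.

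Among the cytosolic HSP70s, HSC70-1 did not pass the test (log2 -0.04, 95% interval -0.10 to 0.02, adjusted p = 0.38), so a change of more than 0.10 in either direction lies outside its interval for the mean effect. In the triple mutant against *dcl2 dcl4* alone it was lower by a log2 of -0.14 (adjusted p = 0.037). HSC70-3 (AT3G09440), a constitutive relative, had densities of 236 and 266 in *hot3-2* and 292 and 313 in *hot3-2 dcl2 dcl4*, against 437 and 424 (*dcl2 dcl4*) and 433 and 438 (WT). All 4 carriers lay below all 4 non-carriers (log2 -0.70 ± 0.06 SE, adjusted p = 2.1e-16). HSP70-4 (AT3G12580), which is heat-inducible, had 17, 17, 19 and 10 CDS P sites in the carriers against 57 to 89 in non-carriers, or densities of 4.00 to 8.13 against 14.1 to 16.4. It was the member with the largest decrease (log2 -1.57 ± 0.29 SE, adjusted p = 1.5e-05). HSC70-2 (AT5G02490), a neighbour of HSC70-1 on chromosome 5, had densities of 72.0 to 96.4 in carriers and 106 to 119 in non-carriers (log2 -0.43 ± 0.09 SE, adjusted p = 3.0e-04). For HSC70-2, 34.5% of the 28 nt footprints began at stretches that other genes share, and its log2 difference was -0.96 when those were left out.

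The 2 large ER HSP70s and the lectin chaperones moved the same way. BIP1 (AT5G28540), the ER HSP70 that binds chains entering the lumen, had densities of 533 and 537 in *hot3-2* and 459.6 and 468 in *hot3-2 dcl2 dcl4*, against 752 and 771 (*dcl2 dcl4*) and 799 and 787 (WT), a log2 difference of -0.68 ± 0.05 SE (adjusted p = 2.7e-21). BIP2 (AT5G42020) had densities of 59.1 to 69.3 in carriers and 87.5 to 102 in non-carriers (log2 -0.54 ± 0.10 SE, adjusted p = 2.1e-05). Of the 28-mers of BIP1 and BIP2, 51.3% and 50.5% were found in another gene, and both calls were kept on unique 28-mers, at log2 -0.69 and -0.70. The lectins CRT1b (AT1G09210, log2 -0.42), CRT1 (AT1G56340, log2 -0.37) and CNX1 (AT5G61790, log2 -0.23), which hold newly made glycoproteins, were lower too. CRT1b had densities of 419 to 481 in carriers and 578 to 625 in non-carriers, whereas the ranges of CNX1 overlapped, with 378 to 495 in carriers and 455 to 551 in non-carriers. Without *hot3-2 dcl2 dcl4* replicate 1 neither CRT1 (log2 -0.28, adjusted p = 0.13) nor CNX1 (log2 -0.17, adjusted p = 0.060) was called. HSP90.7, the HSP90 of the ER, was the sixth ER gene tested and was not called (log2 0.11, 95% interval -0.07 to 0.28).

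HSP70s of the organelles split by paralog. cpHSC70-2 (AT5G49910), a chloroplast HSP70, had densities of 114 to 137 in carriers and 183 to 205 in non-carriers (log2 -0.68 ± 0.08 SE, adjusted p = 3.7e-11). Its paralog cpHSC70-1 differed less, with 183 to 219 in carriers and 209.7 to 248 in non-carriers (log2 -0.23), and lost its call on P sites from codon 16 on (adjusted p = 0.11). In the mitochondrion the 2 HSP70 genes were called in opposite directions. mtHSC70-1 (AT4G37910) had densities of 158 and 146 in *hot3-2* and 169 and 156 in *hot3-2 dcl2 dcl4*, against 118 and 110.3 (*dcl2 dcl4*) and 103 and 92.3 (WT), a log2 difference of 0.53 ± 0.08 SE (adjusted p = 1.8e-07). mtHSC70-2 (AT5G09590) had densities of 75.9 and 81.2 in *hot3-2* and 79.5 and 90.44 in *hot3-2 dcl2 dcl4*, against 141 and 135 (*dcl2 dcl4*) and 106 and 104 (WT), a log2 difference of -0.60 ± 0.09 SE (adjusted p = 1.7e-07). For both paralogs the 4 carriers lay on one side of the 4 non-carriers. Footprints of mtHSC70-1 were concentrated, 27.3% of those in carriers and 26.03% of those in non-carriers lying on codon 137.

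The 7 HSP90s are named by compartment, HSP90.1 to HSP90.4 being cytosolic. HSP90.2 (AT5G56030), HSP90.3 (AT5G56010) and HSP90.4 (AT5G56000), constitutive genes that lie together on chromosome 5, were lower by log2 -0.36, -0.57 and -0.38. Densities of HSP90.3 were 407 to 486 in carriers and 626 to 663 in non-carriers (± 0.05 SE, adjusted p = 4.0e-16). These 3 genes share between 38.2% and 48.7% of their 28-mers, mostly with one another, so that footprints at such places cannot be given to one of them. On unique 28-mers HSP90.2 (log2 -0.38) and HSP90.3 (log2 -0.59) kept their calls, and HSP90.4 did not (log2 -0.17, adjusted p = 0.49). The heat-inducible HSP90.1 had 6 to 27 CDS P sites in carriers and 21 to 35 in non-carriers and was not called. HSP90.5, the HSP90 of the chloroplast stroma, went the other way. Its densities were 106 and 76.6 in *hot3-2* and 107 and 118 in *hot3-2 dcl2 dcl4*, against 39.8 and 46.3 (*dcl2 dcl4*) and 44.8 and 42.5 (WT), a gap of log2 1.18 ± 0.10 SE (adjusted p = 4.2e-16). Part of this lay at the start codon, described below, and from codon 16 on the log2 difference was 1.04 (adjusted p = 1.6e-13). The P sites of HSP90.5 lay on only 141 of its 781 codons. Codon 92 held 14.7% of those in carriers and 16.2% of those in non-carriers.

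**Figure D2:**
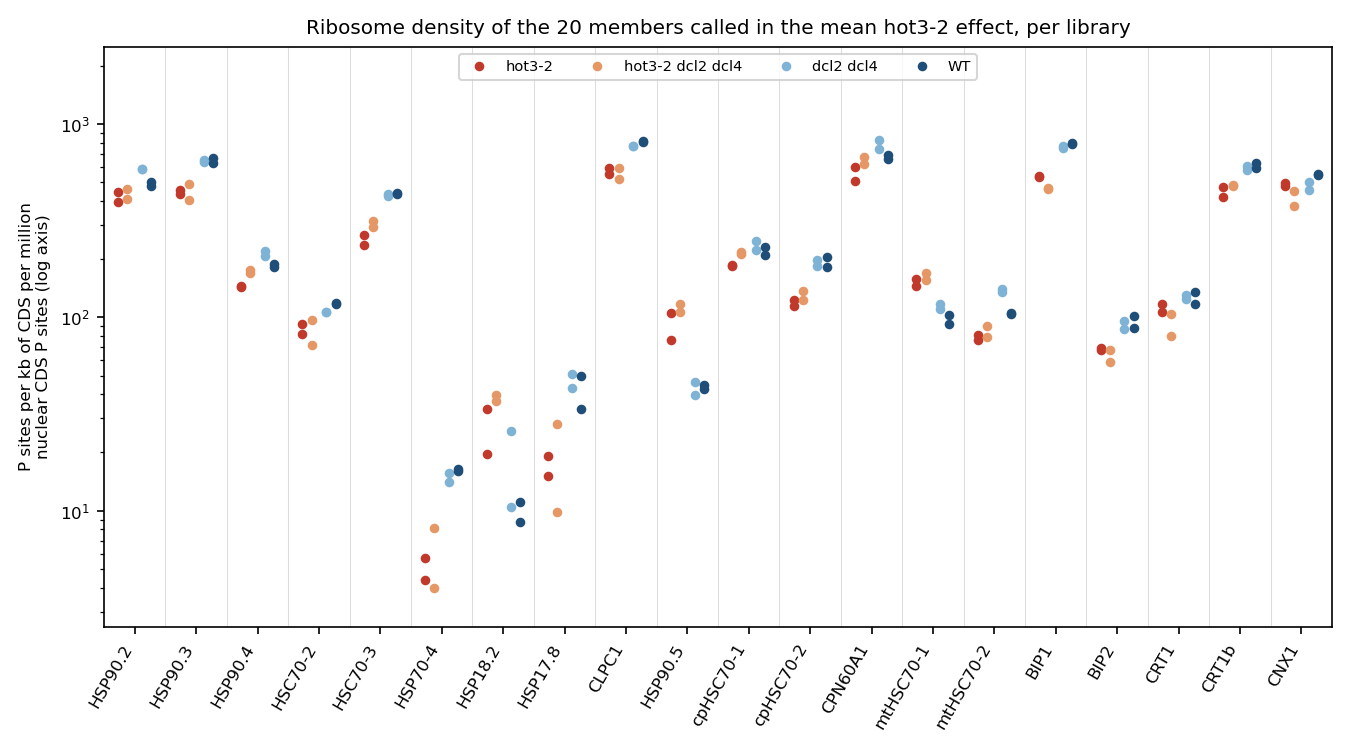
Density in each of the 8 libraries for the 20 called members, on a log axis, with *hot3-2* and *hot3-2 dcl2 dcl4* left of *dcl2 dcl4* and WT for each gene. HSP90.5 and mtHSC70-1 stand higher in all 4 carriers, whereas HSP70-4, HSC70-3 and BIP1 stand lower in all 4.

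CLPC1, the HSP100 motor of chloroplast protein import, had densities of 552 and 589.6 in *hot3-2* and 518 and 589 in *hot3-2 dcl2 dcl4*, against 772 and 767 (*dcl2 dcl4*) and 805 and 816 (WT), a log2 difference of -0.54 ± 0.04 SE (adjusted p = 4.7e-19). CLPB3 and CLPB4, disaggregases of the chloroplast and the mitochondrion, were not called. Of the chaperonins, CPN60A1 (AT2G28000), the alpha subunit of the chloroplast ring, was lower by log2 -0.32 (± 0.05 SE, adjusted p = 1.9e-07), although its densities overlapped, at 508 to 673 in carriers and 658 to 826 in non-carriers. Its partner subunit CPN60B1 had only 30 to 67 CDS P sites per library, 33.2% of them on codon 19, and was not called. The mitochondrial chaperonins HSP60, HSP60-2 and CPN10 were not called, with log2 values of 0.11, 0.55 and 0.47. None of the cochaperones HOP1, HOP2, HOP3, ROF1 and FES1A, which connect HSP70 with HSP90, release nucleotide or isomerise prolines, passed the test, at log2 values from -0.34 to 0.21.

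The 2 sHSPs that could be tested were called in opposite directions, each on few footprints. HSP17.8 (AT1G07400) had 18, 11, 16 and 6 CDS P sites in the carriers and 42 to 61 in non-carriers, which gave densities of 9.90 to 28.2 against 33.4 to 50.7 (log2 -1.36 ± 0.34 SE, adjusted p = 0.0018). HSP18.2 (AT5G59720) had 19 to 25 CDS P sites in carriers and 11 to 26 in non-carriers, with densities of 19.7 to 39.5 against 8.69 to 25.9 (log2 1.23 ± 0.35 SE, adjusted p = 0.0066). The call of HSP17.8 was lost on 28 nt footprints (log2 -0.76, adjusted p = 0.31) and without *hot3-2 dcl2 dcl4* replicate 2 (log2 -0.98, adjusted p = 0.053). That of HSP18.2 was lost without *dcl2 dcl4* replicate 2 (log2 0.89, adjusted p = 0.094).

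The Dicer-like mutations alone moved few members. In *dcl2 dcl4* against WT, HSP90.2 (log2 0.25), mtHSC70-2 (log2 0.40) and CPN60A1 (log2 0.22) were higher, with adjusted p of 0.0034 to 0.012, and none was lower, beside 2.31% and 3.12% of all genes. All 3 were lower in carriers, and their calls were lost without *dcl2 dcl4* replicate 1. No member was called in *hot3-2 dcl2 dcl4* against *hot3-2*, where 0.519% of all genes were higher and 1.17% lower. The interaction, in which the *hot3-2* effect itself was compared between the *dcl2 dcl4* and the WT background, called no member either, beside 0.331% and 0.767% of all genes.

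A second question was whether ribosomes stood on the start codon, where eIF5B1 acts. The start codon share divides the P sites on the ATG by all CDS P sites of a gene or set of genes. Over all nuclear genes it was 2.28% to 3.74% in carriers and 0.533% to 0.754% in non-carriers. Summed over the members it was 2.09% and 1.66% in *hot3-2* and 0.763% and 2.45% in *hot3-2 dcl2 dcl4*, against 0.163% and 0.113% (*dcl2 dcl4*) and 0.277% and 0.320% (WT). All carriers lay above all non-carriers, but *hot3-2 dcl2 dcl4* replicate 1 stood apart from the other carriers. Many start codon footprints of the members were 22 nt or shorter. The deposited P site of such footprints is placed 12 to 13 nt from the 5′ end in WT, *hot3-2* and *hot3-2 dcl2 dcl4* replicate 2. It is placed 7 to 9 nt from that end in *dcl2 dcl4* and *hot3-2 dcl2 dcl4* replicate 1. Footprints of 23 to 26 nt differed in the same way, at 12 to 13 nt against 7 to 10 nt. A measure free of that placement was therefore added after the data were seen: start footprints of any length whose 5′ end lies 10 to 13 nt before the ATG, as a share of those that begin there or later in the CDS. By it the members had 2.21% and 1.79% in *hot3-2* and 2.86% and 2.64% in *hot3-2 dcl2 dcl4*, against 0.388% and 0.355% (*dcl2 dcl4*) and 0.311% and 0.383% (WT), and *hot3-2 dcl2 dcl4* replicate 1 was no longer apart. The ratio of carriers to non-carriers was 7.97 ± 4.84 by P sites and 6.62 ± 1.47 by 5′ ends (error propagated from the SDs of both groups, n = 4 each). Over all nuclear genes the share by 5′ ends was 3.49% to 4.28% in carriers and 0.768% to 0.874% in non-carriers.

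Per gene, the start codon P sites were tested among CDS P sites with a quasi-binomial model over 2096 genes, which 15 members entered. Entry needed a mean of 1 start codon P site over the 8 libraries. Genes high in carriers alone could enter, and genes low in both groups could not. The share over all genes carries the same filter. Of the 15 members, 10 were called higher and none lower in the mean *hot3-2* effect, beside 56.8% and 0.143% of all genes tested. By 5′ ends, 10 of 15 members tested were called higher and they were the same genes, beside 61.7% of 2344 genes higher and 0.0853% lower. The median log2 odds ratio by P sites was 2.83 over the tested members and 2.36 over all tested genes. In *hot3-2* against WT 8 members were called by P sites, beside 40.2% of all genes, and in the triple mutant against *dcl2 dcl4* 8 again, beside 31.3% higher and 0.0954% lower. By 5′ ends these counts were 8, beside 46.5% of all genes higher and 0.0427% lower, and 9, beside 46.9% higher. No member was called by either measure in *dcl2 dcl4* against WT, where 0.286% of all genes were higher and 0.382% lower by P sites, and 0.213% and 0.683% by 5′ ends. Between the triple mutant and *hot3-2* no member was called by P sites, beside 0.0477% of all genes higher and 0.0954% lower, and CLPC1 alone by 5′ ends, beside 1.49% higher and 0.384% lower.

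The windows that a 28 nt footprint covers when its P site is on the ATG are printed for 10 members, because the footprints at these 28 bases carry the start codon result and because paralogs can be told apart there only by a few bases. They are read 5′ to 3′ from the mRNA strand of the TAIR10.1 assembly, with the ATG in capitals.
CLPC1: aactcggaagtcATGgctatggccacaa
CNX1: gagattccgagaATGagacaacggcaac
HSP90.2: cgatctacgacaATGgcggacgctgaaa
HSP90.3: cgatcaacgagaATGgcggacgcagaaa
HSP90.4: cgatcaacgataATGgcggacgcagaga
HSP90.5: ctttcaaatctaATGgctcctgctttga
CPN60A1: ttttctctcaaaATGgcgtctgcaaacg
HSC70-2: cttcgtgtgataATGgctggtaaaggag
HSC70-1: cttccgataaaaATGtcgggtaaaggag
CRT1b: ttttttttagcaATGgcgaaaatgattc
The first 8 were called and the last 2 had next to no start footprints. The base 3 nt before the ATG was A or G in 36 of 44 members with such a window (81.8%), beside 74.0% of 20191 nuclear transcripts, and a G followed the ATG in 31 of 44 (70.5%), beside 56.2%. The windows of HSP90.2 and HSP90.3 differ at 2 of their first 21 bases, those of HSP90.3 and HSP90.4 at 1. A footprint of 20 or 21 nt at these starts therefore identified its gene by 1 or 2 bases.

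CLPC1 (AT5G50920, chr5:20715453-20720681, minus strand) showed the most start footprints. By 5′ ends it had 198 and 129 in *hot3-2* and 182 and 204 in *hot3-2 dcl2 dcl4*, against 37 and 26 (*dcl2 dcl4*) and 19 and 36 (WT). That was 5.13% to 9.66% of its CDS footprints in carriers and 0.298% to 0.824% in non-carriers (log2 odds ratio 3.86 ± 0.17 SE, adjusted p = 6.4e-34). By deposited P sites the same libraries held 198, 127, 23 and 193 in carriers and 2, 4, 18 and 32 in non-carriers (log2 odds ratio 5.15 ± 0.52 SE, adjusted p = 2.3e-06). Most of these footprints were short, 86.3% of the 713 in carriers and 88.1% of the 118 in non-carriers being 22 nt or shorter. Their most common 5′ end lay 12 nt before the ATG, and the most common length was 21 nt. In carriers CLPC1 had fewer CDS footprints in all and more on its start codon. Between the carriers, the share by 5′ ends was higher in *hot3-2 dcl2 dcl4* than in *hot3-2* (log2 odds ratio 0.77 ± 0.16 SE, adjusted p = 0.0014).

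**Figure D3:**
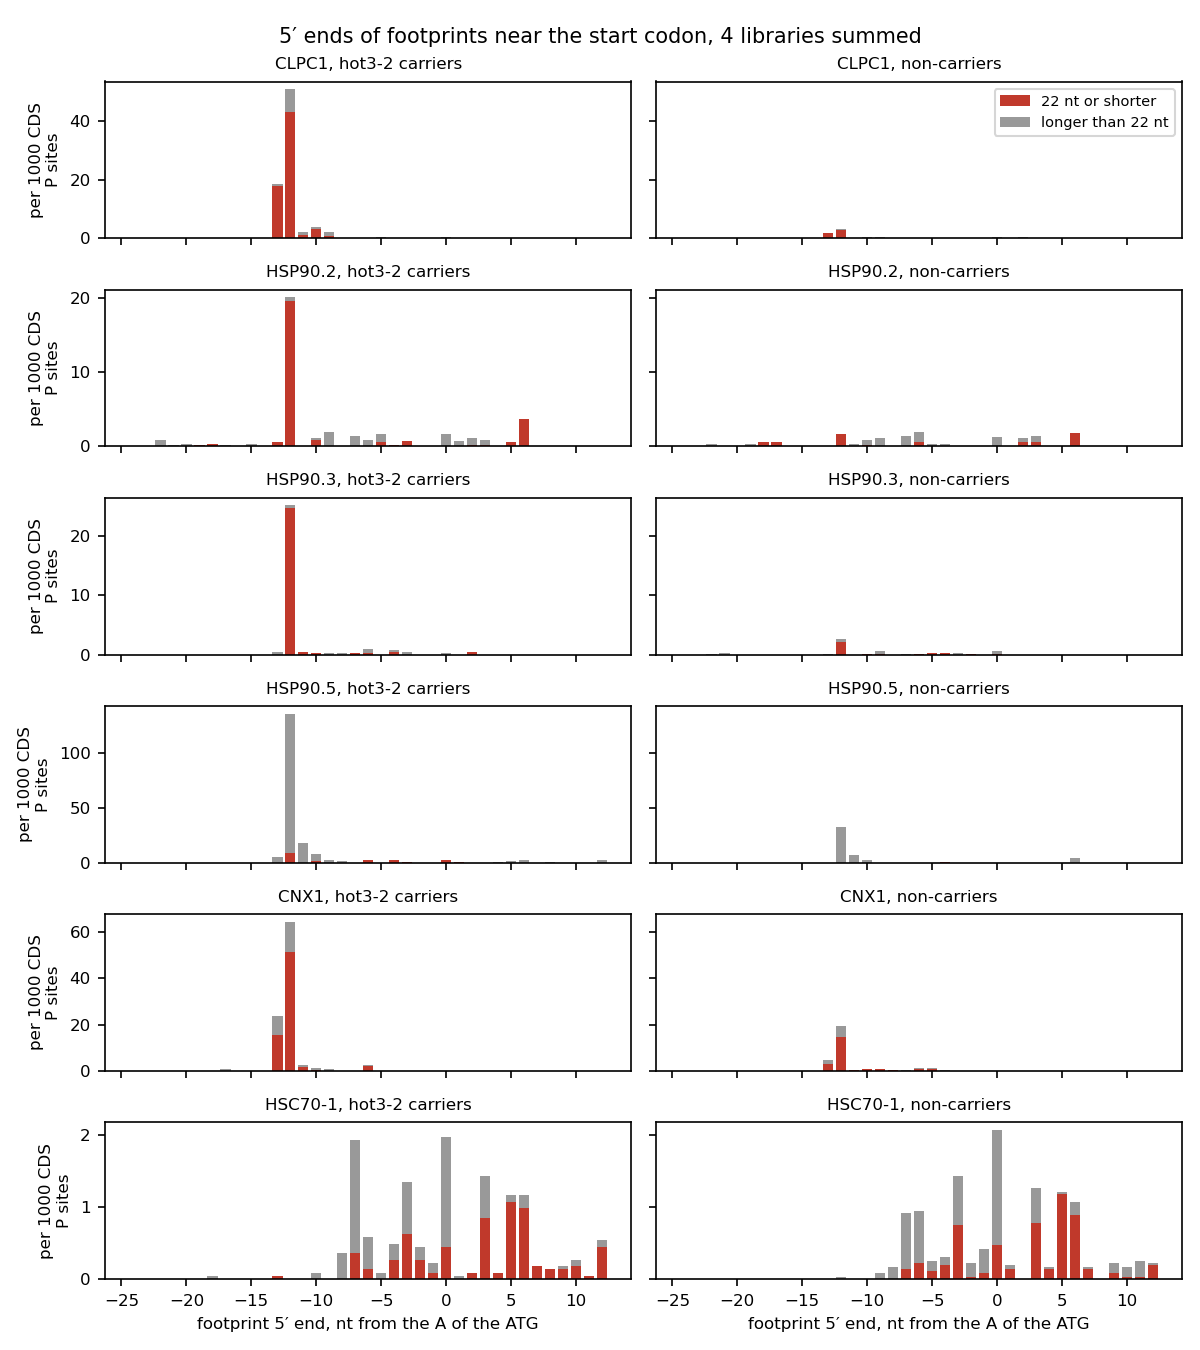
Footprint 5′ ends from 24 nt before to 12 nt after the A of the ATG for 6 members, per 1000 CDS P sites, with the 4 carriers summed at left and the 4 non-carriers at right; red is 22 nt or shorter, grey is longer. A peak at 12 nt before the ATG stands higher in carriers for CLPC1, HSP90.2, HSP90.3, HSP90.5 and CNX1, made of short footprints except in HSP90.5, and is absent from HSC70-1.

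HSP90.5 (AT2G04030, chr2:1281754-1286144, plus strand) had 102 and 25 start footprints in *hot3-2* and 60 and 49 in *hot3-2 dcl2 dcl4*, against 4 and 10 (*dcl2 dcl4*) and 17 and 10 (WT). Its shares were 8.99% to 20.8% in carriers and 2.07% to 5.70% in non-carriers (log2 odds ratio 2.19 ± 0.33 SE, adjusted p = 3.6e-08). Only 5.93% of the 236 start footprints in carriers were 22 nt or shorter, and 124 were 28 nt. Of the called members with 10 or more start footprints in carriers it was the one in which short footprints were rarest. It was also the only member called in this test that was called higher in carriers on CDS footprints.

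The cytosolic HSP90s had fewer start footprints, and most of those in carriers were short, unlike those of HSP90.5. HSP90.3 had 38 and 38 start footprints in *hot3-2* and 29 and 41 in *hot3-2 dcl2 dcl4*, against 2 and 8 (*dcl2 dcl4*) and 13 and 15 (WT), and its log2 odds ratio was 3.34 ± 0.33 SE (adjusted p = 3.2e-14). HSP90.2 had 36 and 41 in *hot3-2* and 28 and 17 in *hot3-2 dcl2 dcl4*, against 1 and 5 (*dcl2 dcl4*) and 16 and 10 (WT), and its log2 odds ratio was 3.22 ± 0.40 SE (adjusted p = 8.7e-11). In carriers 96.6% of the start footprints of HSP90.3 and 96.7% of those of HSP90.2 were 22 nt or shorter. On 28 nt footprints alone HSP90.3 was accordingly not called (log2 odds ratio 0.40). HSP90.4 had 5 to 13 start footprints in carriers and 0 to 5 in non-carriers (log2 odds ratio 3.12 ± 0.72 SE, adjusted p = 1.5e-04). HSP90.4 was called in the triple mutant against *dcl2 dcl4* (4.88 ± 1.10 SE, adjusted p = 2.0e-04) and not in *hot3-2* against WT (1.37 ± 0.84 SE, adjusted p = 0.17), and the interaction that compares these effects was not called (adjusted p = 0.53). Their shares in non-carriers were near or under 0.5%, as the plot of start codon shares shows.

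CNX1 differed in its starting level. It had 136 and 83 start footprints in *hot3-2* and 92 and 89 in *hot3-2 dcl2 dcl4*, against 60 and 53 (*dcl2 dcl4*) and 54 and 40 (WT). Its share was 7.01% to 11.6% in carriers and already 1.77% to 3.90% in non-carriers (log2 odds ratio 1.91 ± 0.17 SE, adjusted p = 6.8e-16). HSC70-2 had 40 and 23 in *hot3-2* and 13 and 19 in *hot3-2 dcl2 dcl4*, against 4 and 2 (*dcl2 dcl4*) and 13 and 5 (WT), with shares of 7.26% to 10.99% in carriers and 0.442% to 2.00% in non-carriers (log2 odds ratio 3.23 ± 0.44 SE, adjusted p = 1.8e-09). CPN60A1 reached 0.293% to 2.18% in carriers and 0.063% to 0.199% in non-carriers (log2 odds ratio 3.34 ± 0.50 SE, adjusted p = 2.5e-08). HOP1, the cochaperone that connects HSP70 and HSP90, had 2, 11, 3 and 6 start footprints in carriers and none in the 4 non-carriers, and mtHSC70-2 had 0 to 7 in carriers and 0 to 3 in non-carriers. Both were called (adjusted p = 2.1e-04 and 0.020), and both calls were lost by P sites without *hot3-2 dcl2 dcl4* replicate 2. Replicate 1, which then remains, places the P site of short footprints 7 to 9 nt from the 5′ end. By P sites HOP1 had 19 on the ATG in carriers and 0 in non-carriers, and mtHSC70-2 had 14 and 3. Both met the minimum mean of 1 ATG P site only through the carriers, so their calls are no independent support.

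**Figure D4:**
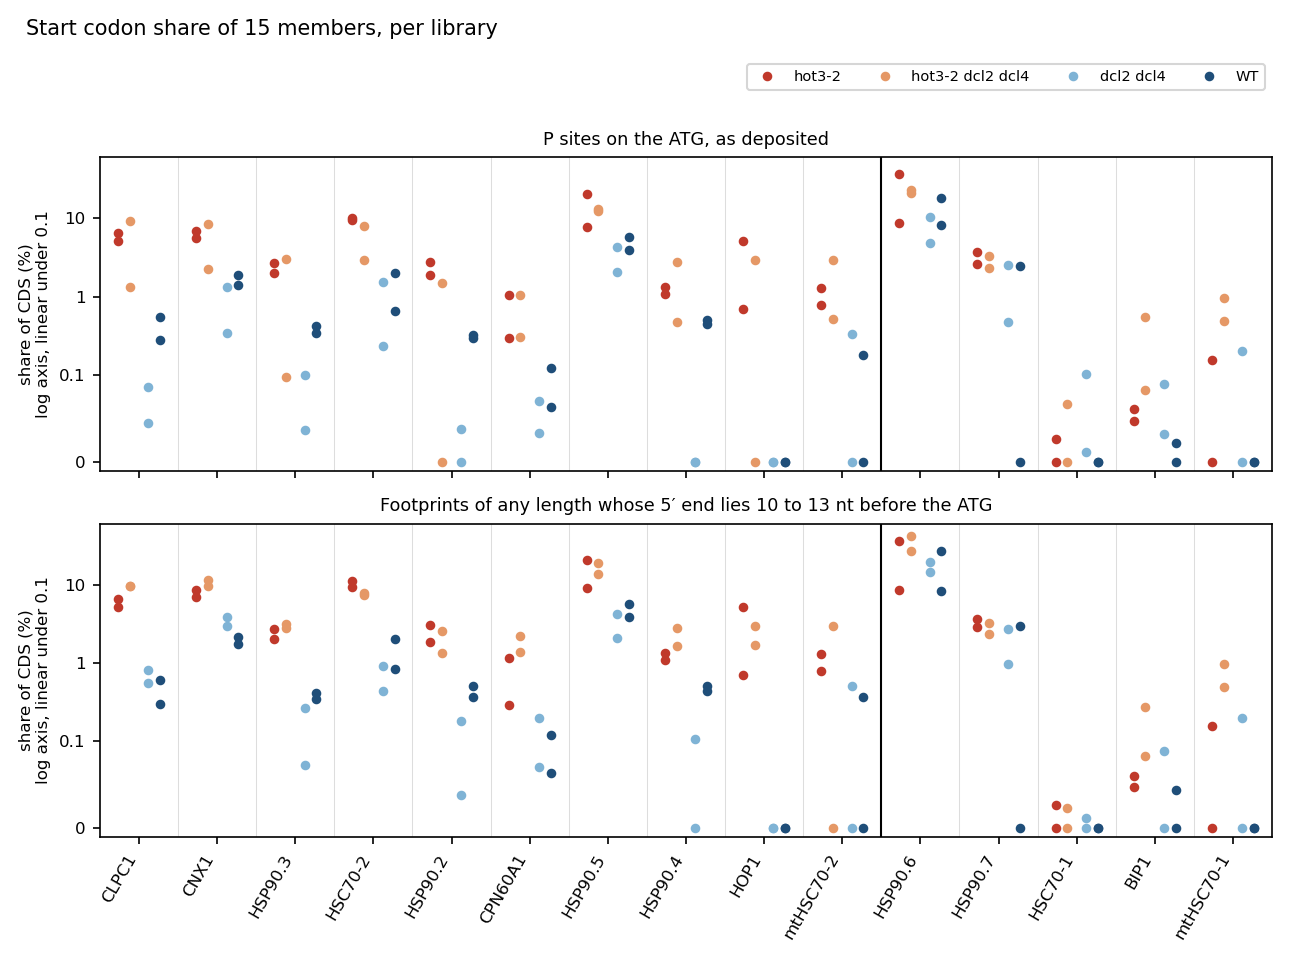
Start codon share in each library for the 15 tested members, by deposited P sites above and by 5′ ends below, on an axis that is logarithmic above 0.1% and linear under it; the vertical line parts the 10 called members from the 5 that were not. In the lower panel carriers and non-carriers are apart for the called members other than mtHSC70-2. The called members were picked by this same contrast, so that separation adds no support, and its share over all genes was not counted.

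Several members with many CDS P sites had few or none on the start codon in carriers or in non-carriers. HSC70-1 had 58103 CDS P sites in all, of which 5 in carriers and 9 in non-carriers lay on the ATG, and its log2 odds ratio was not called (adjusted p = 0.40). CRT1b had 0 of 3520 in carriers, which allows a share of up to 0.085%, and 0 of 7421 in non-carriers, up to 0.040%. BIP2 had 0 of 804 in carriers, up to 0.373%, and 0 of 1830 in non-carriers, up to 0.164%. CRT1 had 0 of 791 in carriers, up to 0.379%, and 0 of 1565 in non-carriers, up to 0.192%. For CRT1b, BIP2 and CRT1, P sites on the start codon were thus not seen, and the carriers have the wider limits. P sites of BIP2 and CRT1 lay on few codons, 135 of 674 and 58 of 426, against 303 of 425 for CRT1b. A count of 0 at 1 codon therefore says little for BIP2 and CRT1. BIP2 also had 102 P sites before the scored ATG in carriers and 136 in non-carriers. Whether that ATG is the one used was not tested. HSC70-3 and CPN10 also had none, but the files give their transcripts a 5′ UTR of 0 nt, as they do for HSP90.1, so a footprint centred on the ATG could not be recorded. HSP90.6 and HSP90.7 had start footprints in both groups, HSP90.6 with 8.57% to 41.5% in carriers and 8.20% to 27.03% in non-carriers and HSP90.7 with 2.33% to 3.69% in carriers and 0% to 3.00% in non-carriers, and were not called. These limits and shares cover counting error only.

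By compartment, the mean start codon share was higher in carriers for each of the 4 sets of genes, as it was over all nuclear genes. By 5′ ends all nuclear genes had 3.49% to 4.28% in carriers and 0.768% to 0.874% in non-carriers. The sets were not tested against all genes. Shares of the sets are given ± SD (n = 4 each) and ratios with the error propagated from both SDs. By 5′ ends the chloroplast members had 4.74% ± 1.31 in carriers and 0.405% ± 0.069 in non-carriers, a ratio of 11.7 ± 3.8. Cytosolic members had 1.03% ± 0.09 in carriers and 0.134% ± 0.076 in non-carriers, a ratio of 7.70 ± 4.40. The ER members had 2.68% ± 0.48 in carriers and 0.706% ± 0.203 in non-carriers, a ratio of 3.80 ± 1.28, and the mitochondrial members 1.64% ± 0.65 in carriers and 0.790% ± 0.363 in non-carriers, a ratio of 2.08 ± 1.26. Mitochondrial values overlapped between the groups, and the other 3 sets did not. The sums rest on few genes, CLPC1 giving 713 of the start footprints of the chloroplast set in carriers. In the mitochondrial set HSP90.6 gave 55 start footprints in carriers and 48 in non-carriers. All 455 of its CDS P sites lay on 38 of 800 codons. Whether the ratios differ between compartments was not tested. The same 3 sets had fewer CDS footprints in carriers, with 0.701% ± 0.004 of all nuclear CDS P sites against 0.812% ± 0.030 in non-carriers for the cytosol, 0.382% ± 0.020 against 0.476% ± 0.013 for the chloroplast and 0.280% ± 0.017 against 0.371% ± 0.013 for the ER. The mitochondrial set had 0.0888% ± 0.0052 in carriers and 0.0807% ± 0.0087 in non-carriers, within the spread of the libraries.

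**Figure D5:**
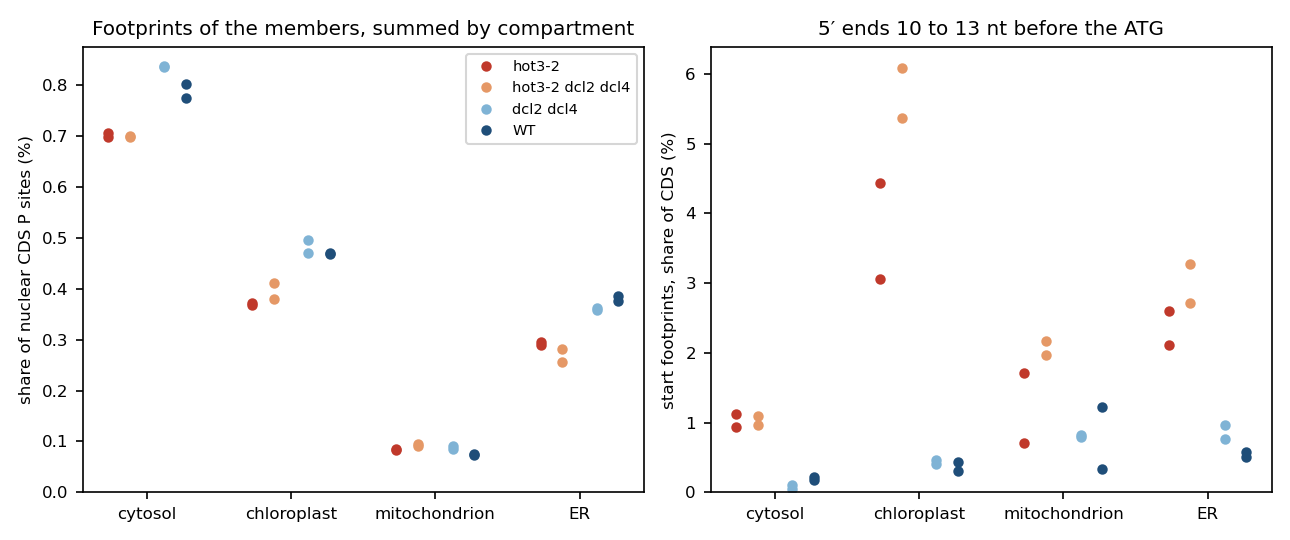
Members summed by compartment in each library, with *hot3-2* and *hot3-2 dcl2 dcl4* left of *dcl2 dcl4* and WT: share of nuclear CDS P sites at left, start footprints by 5′ ends as a share of CDS footprints at right. In the cytosol, chloroplast and ER the carriers have the lower share of footprints and the higher share at the start codon; the mitochondrial values overlap.

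Chaperone genes outside the 45 were taken from lists of 61 genes, of which 43 were tested. The lists were chosen with earlier results of these data known, so their counts are no independent support. Of those, 8 were lower and 3 higher in the mean *hot3-2* effect, beside the same 8.98% and 8.87% of all genes. In the ER, the protein disulfide isomerases PDIL1-1 (log2 -0.69 ± 0.12 SE) and PDIL1-2 (log2 -0.55 ± 0.13 SE) were lower among 8 genes tested. Among 6 J proteins and HSP110s, which regulate HSP70, P58IPK (log2 -0.69) and ERDJ3B (log2 -0.45), both of the ER, were lower. The cytosolic chaperonin CCT had CCT2 higher (log2 0.31) and CCT4 lower (log2 -0.43) among 9 subunits. Among the heat shock factors, 9 of 16 could be tested and HSFA4A alone was called, higher by log2 3.01 ± 0.94 SE. The HSP90 cochaperone ROF2 (log2 -1.12, adjusted p = 0.045), the import motor CLPC2 (log2 -0.32) and CPN60B2 (log2 -0.34) were lower and CLPD (log2 0.29) was higher. At the start codon, 5 of 10 tested genes of these lists were called higher, namely PDIL1-1, CCT1, CCT4, SGT1B and CLPD, beside 56.8% of all genes.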

How the data were processed

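Ribosome footprints of 8 inflorescence libraries were analysed, 2 for each of 4 genotypes, grouped by the genotype and replicate number of the labels. The authors trimmed adapters with cutadapt and mapped 18 to 42 nt footprints to TAIR10 with STAR, and took P sites with RiboTaper from 26, 27, 28 and 29 nt footprints with offsets of 10, 11, 12 and 13 nt. In the deposited files each line is 1 footprint, with its transcript, both ends, the P site and its distances to the start and the stop codon, as positions in nucleotides that no step normalised. They hold other lengths and offsets than those named, so whether RiboTaper placed these P sites is uncertain. How reads that map to several genes were treated is not given for footprints in the sources used here, and no molecular identifiers were used.

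P sites within the CDS were counted per gene. Gene annotation and start windows came from TAIR10.1. Counts tallied from lines entered the voom method of limma (3.58.1, in R 4.3.3) with 1 coefficient per genotype, after trimmed-mean scaling (TMM, trims of 30% and 5%). A count model was planned, but the files hold positions and no count column. Genes needed 10 counts, relative to the median library, in 2 libraries and 15 in all. Start codon P sites were tested with a quasi-binomial model (squeezeVar of limma) for genes with means of 50 CDS and 1 ATG P sites, with 0.5 added for the log2 odds ratio. P-values were adjusted by Benjamini-Hochberg over all genes tested, and both tests were tested on simulated data. Limits of a count of 0 use 3 counts. Named were all called members, the highest and lowest of each family and the heat-inducible genes. The members and lists were chosen with earlier results of these data known. Alternatives were other scalings, filters, footprint lengths and thresholds, thinning, a replicate block and leaving out each library.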

Additional observations from a re-analysis of the deposited data

How the results depend on the processing

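The count of members called in the mean *hot3-2* effect on CDS footprints stayed within 1.5 times of 20 under every alternative but the strict threshold (adjusted p of 0.01 and 2-fold), which left 4 beside 2.70% of all genes. It left 2 in *hot3-2* (to WT), beside 2.85%, 1 in the triple mutant (to *dcl2 dcl4*), beside 1.496%, and 0 for *dcl2 dcl4* against WT, beside 0.804%. Leaving out single libraries gave 10 to 19 members for the triple mutant (10 without *hot3-2 dcl2 dcl4* replicate 1, beside 5.49% of all genes in place of 8.92%) and 0 to 4 for *dcl2 dcl4* against WT (0 without *dcl2 dcl4* replicate 1, beside 1.79% in place of 5.43%), where thinning to the shallowest library gave 1, beside 3.05%. Scaling by totals alone moved the median log2 difference of all genes to 0.05 and the calls to 1372 higher and 1050 lower, against 1180 and 1194, and changed no direction of a named member. Members not called changed sign: HSP90.1 had log2 0.38 on 28 nt footprints, 0.33 on unique 28-mers and -0.78 to 0.21 without single libraries, and HOP3 had -0.49 to 0.51 without single libraries. At the start codon the 10 calls among 15 members tested became 4 of 8 tested on 28 nt footprints, beside 59.7% of all genes, 5 of 8 on 26 to 29 nt footprints with the offsets of the methods, beside 60.5%, and 5 to 11 without single libraries (5 of 14 without *hot3-2 dcl2 dcl4* replicate 2, beside 35.1% in place of 57.0%). For *hot3-2* against WT the counts were 3, 3 and, under the strict threshold, 5, beside 47.7%, 45.1% and 19.6%, and 5 to 8 without single libraries (5 without WT replicate 1 or *hot3-2* replicate 1, beside 16.0% and 19.8% in place of 40.2%). In the triple mutant they were 2, 4 and 4, beside 40.5%, 41.2% and 13.4%, and 1 to 8 without single libraries, being 3 and 2 without *dcl2 dcl4* replicates 1 and 2, beside 10.5% and 10.02%, and 1 without *hot3-2 dcl2 dcl4* replicate 2, beside 11.4% in place of 31.4%. The mitochondrial ratio of start codon shares was 3.24 from summed P sites and 10.95 as the mean of shares per member. That mean took only mtHSC70-1, mtHSC70-2 and HSP60, which had enough CDS P sites in every library, and left out HSP90.6. These ratios thus differ in the genes they cover as well as in averaging. Without *hot3-2 dcl2 dcl4* replicate 2, the triple mutant rests on replicate 1, which places the P site of short footprints 7 to 9 nt from the 5′ end. In replicate 1 the members had 130 P sites on the ATG but 498 start footprints by 5′ ends. In replicate 2 they had 466 and 504. The part of this placement in the lower start codon counts was not tested. Apart from it and from fewer footprints in a length class or fewer libraries, the cause was not tested.

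Same-numbered libraries deviated together with r from -0.047 to 0.122, above 0.1 in 1 of 6 pairs of genotypes, so the numbers were not taken to pair libraries. With a replicate block HOP3 had log2 0.074, and the start codon counts were 5 in *hot3-2* (to WT), beside 19.1% of all genes, and 0 in the triple mutant (to *dcl2 dcl4*), beside 5.15%.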
